A study of Mus musculus with 8 samples.

Results

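The stefin A genes are a family of small, near-identical genes on mouse chromosome 16, and 7 of them were followed here in RNA-seq of whole BM cells from 8 mice: Stfa1, Stfa2, Stfa2l1, Stfa3, BC100530, BC117090 and Gm5483. They are 7 of the 41214 genes counted in each library, and they were taken as a named family by matching their symbols to Ensembl identifiers. The family was selected on the counts of Stfa1 and BC100530, which were low in old KO and high in sick KD libraries, so every value of the family in those libraries is given as a description with no test, and a test is given only between the young mice.

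All mice were of the C57Bl6 strain and fell into 4 groups of 2 mice, named by their Gfi1 allele and state. In KD mice the Gfi1 locus holds the human GFI1 cDNA together with an antisense neo cassette, and they express a low dose of the protein in every cell that uses the locus, whereas KO mice lack Gfi1 throughout the body. Age at analysis was 39 and 42 days in young KD, 48 and 44 days in young KO, 187 and 78 days in sick KD and 158 and 101 days in old KO. Sick KD mice had a myeloproliferative neoplasm by the study's account, the labels give AML for them and no AML for the other 3 groups, and no wild-type library was analysed here. Sick KD and old KO mice therefore differ in genotype, disease and age together, and these cannot be told apart.

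Stefins are type 1 cystatins, small proteins without a signal peptide that stay in the cytosol and block papain-like cysteine proteases such as cathepsins B, H, L and S by inserting into the active site. Mice carry a cluster of stefin A copies where humans carry CSTA alone, and in mice these genes are known from neutrophils and their precursors as well as from epidermis. GFI1 is a zinc finger repressor that granulocyte precursors need to become neutrophils.

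The 7 genes lie within 298.582 kb of GRCm38 (chr16:36156811-36455392). Stfa2l1 (chr16:36156811-36161953), Gm5483 (chr16:36184212-36188111) and Stfa1 (chr16:36276951-36285373) are on the plus strand. BC117090 (chr16:36321665-36334332), BC100530 (chr16:36359382-36367748), Stfa2 (chr16:36403992-36408457) and Stfa3 (chr16:36450537-36455392) follow on the minus strand. Each has a coding transcript of 3 exons, with a coding length of 288 to 309 bases in 6 genes and of 384 bases in Stfa1. The first stretch of the coding sequence that aligns in all 7 is shown because the likeness of the copies limits how reads can be assigned to them. These are 90 bases from the GENCODE M21 transcripts, 5′ to 3′, with capitals at the 31 positions where the 7 genes do not all carry the same base.

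Stfa1: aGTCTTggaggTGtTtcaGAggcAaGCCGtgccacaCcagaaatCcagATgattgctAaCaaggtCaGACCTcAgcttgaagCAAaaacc
BC100530: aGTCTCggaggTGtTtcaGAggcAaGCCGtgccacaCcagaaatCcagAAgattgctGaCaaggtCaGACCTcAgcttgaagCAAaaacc
BC117090: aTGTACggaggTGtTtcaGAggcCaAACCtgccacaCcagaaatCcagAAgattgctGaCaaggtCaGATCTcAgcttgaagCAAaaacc
Stfa2: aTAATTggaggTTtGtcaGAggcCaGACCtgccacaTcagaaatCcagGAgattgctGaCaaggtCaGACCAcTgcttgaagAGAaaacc
Stfa2l1: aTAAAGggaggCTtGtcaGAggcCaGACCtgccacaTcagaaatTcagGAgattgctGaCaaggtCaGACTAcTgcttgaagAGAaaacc
Stfa3: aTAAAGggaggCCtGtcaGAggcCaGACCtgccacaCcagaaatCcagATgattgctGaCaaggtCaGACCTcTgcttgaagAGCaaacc
Gm5483: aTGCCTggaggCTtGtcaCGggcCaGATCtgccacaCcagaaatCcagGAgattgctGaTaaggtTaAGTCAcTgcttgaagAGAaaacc

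The other 59 of the 90 bases were the same in all 7 genes. Over 288 gap-free columns of the whole coding sequence, the 21 pairs of genes were 77.1% to 97.9% identical, with a median of 81.9%. Stfa1 and BC100530 were the closest pair with 97.9%, followed by Stfa2 and Stfa2l1 with 96.9% and BC100530 and BC117090 with 95.5%. Stfa3 and Gm5483 had no such close copy among the 7, and their highest identities were 83.3% for Stfa3, with BC117090, and 82.3% for Gm5483, with Stfa3.

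This likeness bears on the counts. Every window of 50 bases of the main transcript of Stfa3 was found in no other GENCODE M21 transcript, so among annotated transcripts a read of that length points to Stfa3 alone. The share of such unique windows was 84.1% for Stfa2, 75.4% for Stfa2l1, 74.6% for Stfa1, 66.3% for BC117090, 64.4% for Gm5483 and 51.1% for BC100530. With windows of 100 bases it was 77.7% for BC100530 and 86.5% to 100% for the others. BC100530 shared 23.0% of its windows of 50 bases with Stfa1, 17.2% with Gm15845, an antisense transcript that overlaps its exons, and 16.1% with BC117090. Gm5483 shared its windows with 2010005H15Rik, another stefin A copy in the cluster that is annotated as Csta2, at 35.6% of windows of 50 bases. The read length and the strand setting of the counting are not given in the sources used here. Alignments that were not unique have a tally apart from the genes. It held 45056950 and 56501078 in sick KD, beside 26642067 and 30139409 counts on genes. In young KD it held 43447208 and 36555697, beside 39212193 and 32037260. In young KO it held 47000865 and 35836088, beside 42679114 and 32222614. In old KO it held 29299324 and 43878371, beside 27515379 and 39308657. How many reads of shared stretches this took from each copy is not known. The values of Stfa1, BC100530, BC117090 and Gm5483 in particular are uncertain. The summed count of the 7 genes is not affected by reads that move between its members, but it would lack reads set aside in that tally. The part of this tally in the results was not tested.

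**Figure D1:**
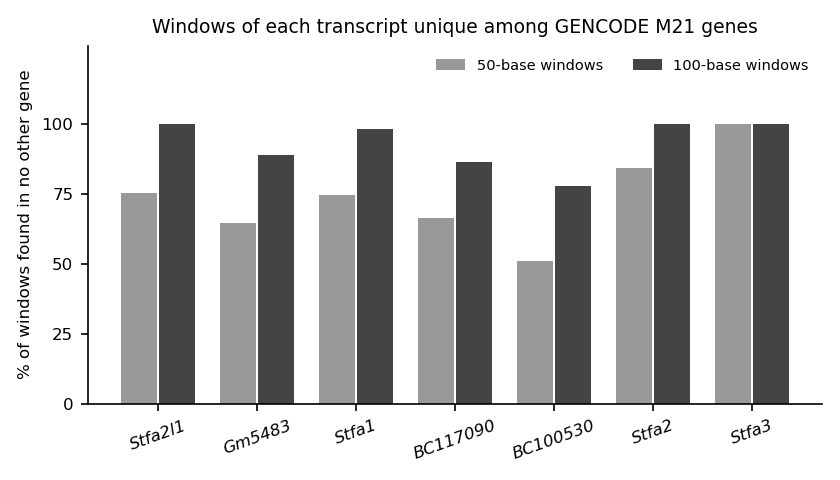
Share of sequence windows found in no other gene, in % of all windows of the main transcript of each stefin A gene, for windows of 50 bases (light bars) and 100 bases (dark bars), compared with the GENCODE M21 transcripts. Stfa3 is at 100% for both, and BC100530 is lowest with 51.1% and 77.7%.

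Promoter windows of 6 of the 7 genes matched in RefSeq (GRCm38.p6), and BC117090 was not matched. The 250 bases before the start site are shown for the 3 genes whose window ends directly before the annotated transcript, because these genes varied together across the libraries. The sequences run 5′ to 3′ on the strand of the gene. Capitals mark matches to GAGGAA, the letters of an ETS family core, which read TTCCTC where the match is on the opposite strand.

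Stfa2l1, chr16:36156561-36156810, plus strand: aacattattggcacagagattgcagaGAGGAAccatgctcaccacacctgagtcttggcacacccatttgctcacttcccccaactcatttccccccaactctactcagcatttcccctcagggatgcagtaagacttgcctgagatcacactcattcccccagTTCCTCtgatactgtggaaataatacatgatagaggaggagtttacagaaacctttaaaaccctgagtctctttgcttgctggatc
Gm5483, chr16:36183962-36184211, plus strand: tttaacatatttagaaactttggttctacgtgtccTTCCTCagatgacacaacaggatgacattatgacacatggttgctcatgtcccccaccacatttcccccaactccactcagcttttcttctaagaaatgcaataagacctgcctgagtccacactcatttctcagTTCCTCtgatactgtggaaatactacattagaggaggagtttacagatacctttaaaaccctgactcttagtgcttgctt
Stfa3, chr16:36455393-36455642, minus strand: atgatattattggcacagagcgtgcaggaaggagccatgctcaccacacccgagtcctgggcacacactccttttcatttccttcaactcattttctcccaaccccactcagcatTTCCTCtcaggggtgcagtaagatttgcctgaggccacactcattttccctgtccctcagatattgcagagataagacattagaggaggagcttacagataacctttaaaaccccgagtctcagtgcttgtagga

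Windows of 300 bases, 250 before and 50 after the start site, were searched on both strands. GAGGAA was in the window of 6 of 6 genes, against 28.3% of the 32851 RefSeq promoters of the same length. TTGCNNAA, letters found in C/EBP sites, was in the windows of Stfa1 and BC100530, against 10.8% of all promoters. AAATCA, letters of a GFI1 core, and TATAAA were in none of the 6, against 14.0% and 13.6% of all promoters. No match overlapped another motif. The windows of these genes were 67.1% to 90.5% identical to each other, with Stfa2 and Stfa2l1 closest, so a motif shared by several of them is not an independent match in each.

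The stefin A genes were weakly counted in BM. The 8 libraries held 26642067 to 42679114 counts on genes, and the 7 genes together held 489 and 74 counts in sick KD, 19 and 20 in old KO, 76 and 47 in young KO and 204 and 201 in young KD. Expressed as CPM (counts scaled to library size with the TMM method), the summed level was 5.06 and 6.06 CPM in young KD and 1.73 and 1.43 CPM in young KO. It was 19.7 and 2.63 CPM in sick KD and 0.669 and 0.510 CPM in old KO. The order of the libraries thus ran from both old KO libraries through both young KO libraries, 1 sick KD library and both young KD libraries to the other sick KD library. The group means were 5.56 ± 0.710 CPM in young KD, 1.58 ± 0.209 CPM in young KO, 11.2 ± 12.1 CPM in sick KD and 0.590 ± 0.112 CPM in old KO (SD, n = 2). The sick KD libraries differed 7.50-fold from each other, while the libraries of each of the other groups differed by at most 1.31-fold. Since whole BM was sequenced, fewer cells that use these genes and less of their RNA per cell cannot be told apart.

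**Figure D2:**
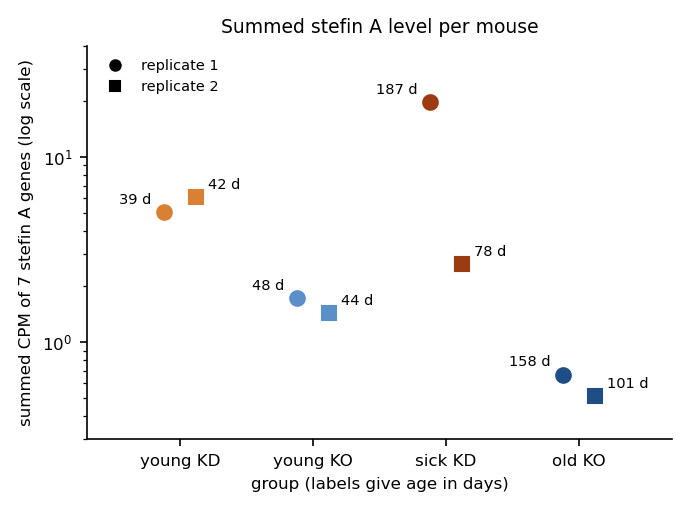
Summed level of the 7 stefin A genes in each mouse, in CPM on a log axis, by group. Each point is 1 library, with the age of the mouse in days beside it. Both KO groups lie below both KD groups, and the sick KD mice lie at 19.7 and 2.63 CPM.

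The mouse Gfi1 gene was measured at 6.17 and 7.03 CPM in young KD, 14.0 and 14.4 CPM in young KO, 5.49 and 7.15 CPM in sick KD and 13.3 and 29.7 CPM in old KO, higher in those labelled KO. Reads of the human cDNA of the KD allele were not counted separately, so Gfi1 cannot check the labels, and each KO-to-KD direction given here rests on them.

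Stfa3 had the highest level per transcript length in young KD, the group with the least relative spread. In RPKM, which divides CPM by the exon length in kb, it reached 3.81 ± 0.220 RPKM in young KD (SD, n = 2). Stfa2l1 with 1.67 ± 0.690 RPKM, BC100530 with 1.55 ± 0.0687 RPKM and Stfa1 with 1.35 ± 0.376 RPKM followed and did not differ beyond their spread. Stfa2 was at 0.779 ± 0.0149 RPKM and Gm5483 at 0.388 ± 0.116 RPKM. The exon length of Gm5483 includes a long transcript with a retained intron, so its RPKM is a low estimate. BC117090 was at 0.0320 ± 0.0453 RPKM, from 1 count.

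Stfa1 had 31 and 38 counts in young KD, 9 and 4 in young KO, 97 and 14 in sick KD and 2 and 0 in old KO. As CPM these were 0.768 and 1.15, 0.204 and 0.122, 3.92 and 0.498, and 0.0704 and 0, where the count of 0 allows up to 0.0766 CPM (3 counts). Each KO library was below each KD library.

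BC100530, the copy closest to Stfa1, had 48 and 42 counts in young KD, 17 and 17 in young KO, 120 and 15 in sick KD and 4 and 5 in old KO. Its levels were 1.19 and 1.27 CPM in young KD, 0.386 and 0.518 CPM in young KO, 4.84 and 0.533 CPM in sick KD and 0.141 and 0.128 CPM in old KO. The KO and KD libraries did not overlap, but the higher young KO library lay just under the lower sick KD library.

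Stfa3, the member with most counts and the only one whose windows were all unique, had 66 and 50 counts in young KD, 31 and 12 in young KO, 113 and 17 in sick KD and 5 and 8 in old KO. Its levels were 1.64 and 1.51 CPM in young KD, 0.704 and 0.365 CPM in young KO, 4.56 and 0.604 CPM in sick KD and 0.176 and 0.204 CPM in old KO. Here 1 young KO library was above the lower sick KD library.

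Gm5483 had 23 and 29 counts in young KD, 9 and 7 in young KO, 67 and 14 in sick KD and 4 and 5 in old KO. Its levels were 0.570 and 0.874 CPM in young KD, 0.204 and 0.213 CPM in young KO, 2.70 and 0.498 CPM in sick KD and 0.141 and 0.128 CPM in old KO. The 4 KO libraries were all below the 4 KD libraries.

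Stfa2l1 had 20 and 30 counts in young KD, 5 and 3 in young KO, 67 and 7 in sick KD and 3 and 0 in old KO. Its levels were 0.496 and 0.905 CPM in young KD, 0.114 and 0.0913 CPM in young KO, 2.70 and 0.249 CPM in sick KD and 0.106 and 0 CPM in old KO. The libraries labelled KO were again below those labelled KD, and young KO and old KO overlapped.

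Stfa2, the least counted of the 6 genes with counts in every group, had 15 and 12 counts in young KD, 5 and 4 in young KO, 25 and 7 in sick KD and 1 and 2 in old KO. Its levels were 0.372 and 0.362 CPM in young KD, 0.114 and 0.122 CPM in young KO, 1.01 and 0.249 CPM in sick KD and 0.0352 and 0.0510 CPM in old KO. The KO libraries did not reach the KD libraries.

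BC117090 had 1 count in 1 young KD library and 0 in the other 7, where a count of 0 allows up to 0.0681 to 0.121 CPM depending on the library. No fold is given for it.

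**Figure D3:**
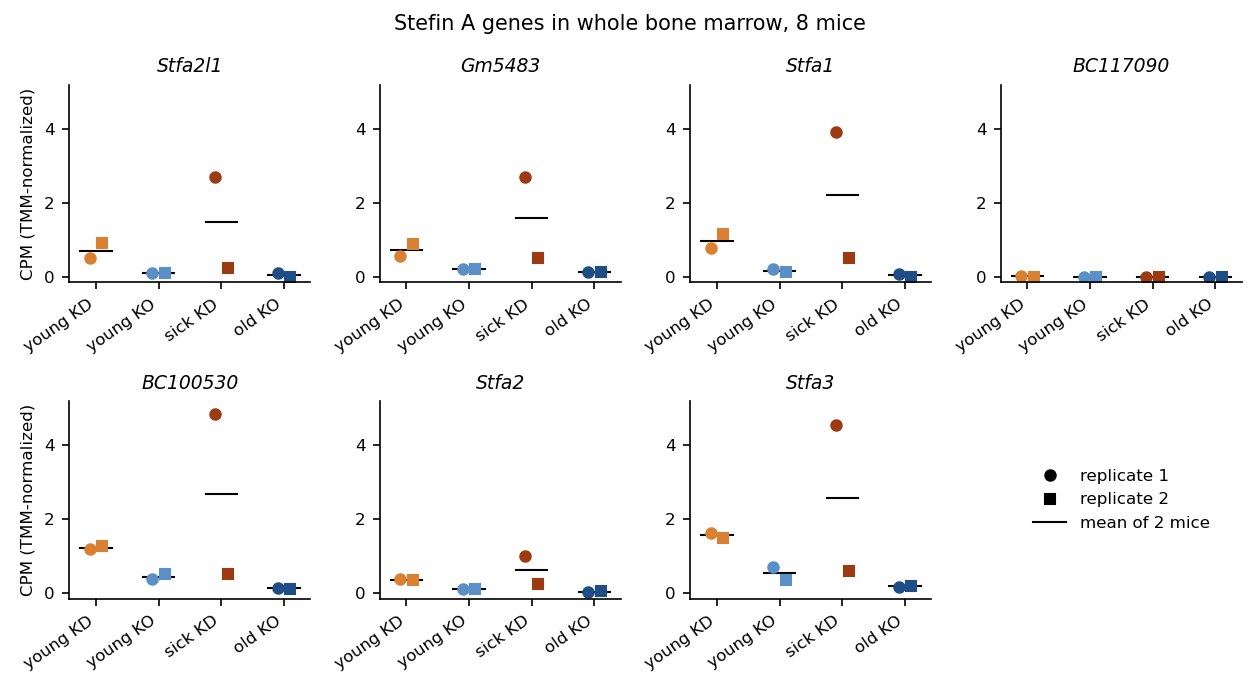
Level of each stefin A gene in each library, in CPM after TMM scaling, by group. Circles and squares are the 2 mice of a group and the line is their mean. In 6 genes the same sick KD library lies above all others, and BC117090 is at or near 0 everywhere.

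All 4 KO libraries were below all 4 KD libraries in 5 of the 7 genes (Stfa1, Stfa2, Stfa2l1, BC100530 and Gm5483). Over the 15102 genes tested in 8 mice, 267 were ordered in this way (1.77%). Stfa1, Stfa2, Stfa2l1 and Gm5483 passed the filter on low counts for these 8 mice through KD libraries alone, which partly built the order in. This order includes the old KO and sick KD libraries that led to the choice of the family, so it is a description.

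The young mice address whether the difference between KO and KD was present before disease. Both young KO mice (48 and 44 days) were older than both young KD mice (39 and 42 days). Genotype and this small difference in age cannot be told apart. The summed level was 3.52-fold lower in young KO than in young KD, with a pooled ratio of 0.290 (exact 95% counting interval 0.235 to 0.356). In 6 of the 7 genes both young KO libraries were below both young KD libraries. This order was held by 12.2% of the 14839 genes tested, a share set only beside Stfa3 and BC100530. Stfa1, Stfa2, Stfa2l1 and Gm5483 passed the filter on low counts through the KD libraries alone, which partly built the order in. The fold change of Stfa3 was -1.53 on the log2 scale (SE 0.36, unadjusted p = 0.00525, adjusted p = 1 by the quasi-likelihood test of edgeR after Benjamini-Hochberg adjustment). That of BC100530 was -1.45 (SE 0.30, unadjusted p = 0.00298, adjusted p = 0.983 from edgeR). These are the only members that passed the filter on low counts in both groups.

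The other 4 tested genes passed that filter through the KD libraries alone, at 0.280 CPM, so that a lower level in KO was partly built into their selection. Their log2 fold changes were -2.49 for Stfa1 (SE 0.43), -2.70 for Stfa2l1 (SE 0.52), -1.77 for Gm5483 (SE 0.41) and -1.62 for Stfa2 (SE 0.45). Their adjusted p from edgeR was 0.747 for Stfa1, 0.787 for Stfa2l1 and 1 for Gm5483 and Stfa2. With edgeR, 0 of the 6 tested members passed an adjusted p of 0.05, as did 6 of all 14839 genes (0.0404%). Both members that passed the filter in both groups had an unadjusted p under 0.05, as did 394 of all genes (2.66%, or 1.52% counting only genes lower in KO). The 4 others had one too, but are not read against that share because of the filter. With DESeq2, 0 members passed, while 5 received no adjusted p because of their low counts. An unadjusted p under 0.05 from DESeq2 was found for 5 members and for 288 of all 21861 genes. With all 8 mice fitted together, the unadjusted p from edgeR was 0.0853 for Stfa3 and 0.120 for BC100530. The spread in that fit also includes the old KO and sick KD libraries.

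Without the filter on low counts, edgeR called 5 of the 7 members lower in young KO, among 119 of 21861 genes called in all (0.544%). The adjusted p was then 0.000283 for Stfa1, 0.00133 for Stfa2l1, 0.00880 for Stfa3, 0.0289 for BC100530 and 0.0464 for Gm5483. The call of these genes thus rests on how genes with few counts enter the fit, while their direction and size did not depend on it. The labels give no batch, and with 2 mice a group the p covers only the spread between these mice.

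Between old KO and sick KD mice the difference was larger in size, but the contrast led to the choice of the genes and is given without a test. The summed level was 19.0-fold lower in old KO, and 4.46-fold lower without sick KD replicate 1. In 6 of the 7 genes both old KO libraries were below both sick KD libraries, an order held by 33.5% of the 14470 genes tested in this comparison, of which 18.1% were called by edgeR. Old KO libraries held at most 8 counts of any member. A member could thus pass the filter on low counts only through sick KD, which partly built the order in. The members are not read against that share. For Stfa3 the mean level was 13.6-fold lower in old KO (0.190 ± 0.0198 against 2.58 ± 2.80 CPM, SD, n = 2), and 3.18-fold lower without sick KD replicate 1. For BC100530 it was 20.03-fold lower, and 3.97-fold lower without that library. For Gm5483 it was 11.9-fold lower, and 3.71-fold lower without it. Stfa1, Stfa2l1 and Stfa2 had 2, 3 and 3 counts in both old KO libraries together, and their pooled ratios were 0.0141 (exact 95% counting interval 0.00169 to 0.0522) for Stfa1, 0.0317 (0.00640 to 0.0964) for Stfa2l1 and 0.0734 (0.0144 to 0.235) for Stfa2. These intervals cover counting error and not the spread between mice. By mean CPM the level in old KO was 62.6-fold lower for Stfa1, 27.9-fold for Stfa2l1 and 14.6-fold for Stfa2, and without sick KD replicate 1 it was 14.1-fold, 4.71-fold and 5.77-fold lower.

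**Figure D4:**
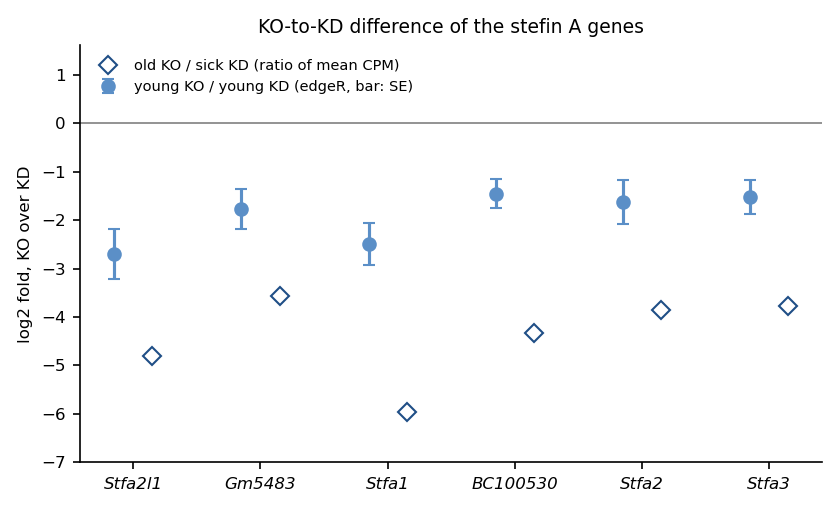
Log2 fold of the level in KO over KD for the 6 stefin A genes with counts in every group. Filled circles are young mice (edgeR fit with its SE as bar), and open diamonds are the ratio of mean CPM of old KO over sick KD, with no error because it is a description. All values are below 0, and the young values lie between -2.70 and -1.45.

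The sick KD libraries lay on both sides of young KD. In each of the 6 genes, sick KD replicate 1 was above both young KD libraries and sick KD replicate 2 was below both. The mean summed level was 2.01-fold higher in sick KD than in young KD, and 2.11-fold lower without sick KD replicate 1, so no direction can be given. Between the sick KD mice the level differed 4.06-fold for Stfa2, 5.43-fold for Gm5483, 7.55-fold for Stfa3, 7.87-fold for Stfa1, 9.08-fold for BC100530 and 10.9-fold for Stfa2l1. The mouse with the higher values was 187 days old and the other 78 days. Reads outside annotated genes were 42.0% and 38.8% of uniquely aligned reads in these libraries against 26.9% to 33.8% in the other 6, and their part in the result was not tested. In the comparison of sick KD with young KD, which shares the young KD libraries with the comparison above, all 7 genes overlapped between groups, whereas 34.3% of the genes tested were higher and 32.4% lower in both sick KD libraries.

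Old KO and young KO mice carry the same allele and were both labelled free of AML, and this comparison shares its libraries with those above. The summed level was 2.68-fold lower in old KO, with a pooled ratio of 0.361 (exact 95% counting interval 0.245 to 0.521). In 5 of the 7 genes both old KO libraries were below both young KO libraries, an order held by 18.9% of the 14847 genes tested, of which 0.929% were called by edgeR. Those tested had passed the filter on low counts. No member had more than 8 counts in an old KO library, so members could pass it only through young KO. The members are therefore not read against that share. The pooled ratio was 0.301 for BC100530 (interval 0.127 to 0.641) and 0.344 for Stfa3 (interval 0.170 to 0.652). It was 0.640 for Gm5483 (interval 0.249 to 1.54), and 0.175 for Stfa1 (interval 0.0192 to 0.773) from 2 counts in old KO. The ratio of mean CPM of Stfa1 was 0.216, and 0.432 without old KO replicate 2. The pooled ratio was 0.379 for Stfa2 (interval 0.0660 to 1.52) and 0.427 for Stfa2l1 (interval 0.0729 to 1.78). These intervals cover counting error and not the spread between mice. The old KO libraries were used to choose the family, so all these values are a description.

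The share of each gene in the summed count was compared library by library. Stfa3 made up 32.4% (exact 95% interval 26.0 to 39.2%) and 24.9% (19.1 to 31.4%) in young KD, and 23.1% (19.4 to 27.1%) and 23.0% (14.0 to 34.2%) in sick KD. In young KO it was 40.8% (29.6 to 52.7%) and 25.5% (13.9 to 40.3%), and the interval of the first of these lay above that of sick KD replicate 1. BC100530 made up 23.5% (17.9 to 30.0%) and 20.9% (15.5 to 27.2%) in young KD, 24.5% (20.8 to 28.6%) and 20.3% (11.8 to 31.2%) in sick KD and 22.4% (13.6 to 33.4%) and 36.2% (22.7 to 51.5%) in young KO. Stfa1 made up 15.2% (10.6 to 20.9%) and 18.9% (13.7 to 25.01%) in young KD, 19.8% (16.4 to 23.7%) and 18.9% (10.7 to 29.7%) in sick KD and 11.8% (5.56 to 21.3%) and 8.51% (2.37 to 20.4%) in young KO. In old KO, with 19 and 20 counts in all, the shares were measured poorly, with 26.3% (9.15 to 51.2%) and 40% (19.1 to 63.9%) for Stfa3. On log2(CPM + 1), the correlation between 2 members over the 8 libraries was 0.957 to 0.996 for the 15 pairs without BC117090. These values share the same libraries, and how reads of shared stretches entered them is not known.

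Other genes in the cluster had no or few counts. Between the first and the last member the annotation holds 22 further genes, of which 18 were counted and 12 are small nuclear RNA genes, each with 0 counts. 2010005H15Rik (Csta2), which shares windows with Gm5483, had 4 and 2 counts in sick KD and 0 in the other 6 libraries. Gm5416 (Csta3), a further stefin A copy, had 0 counts in all 8 libraries, as did the antisense gene Gm15845 and the flanking Csta1. Gm10913, a processed pseudogene, had 0 to 10 counts. The flanking gene on the other side, Casr, the calcium-sensing receptor, had 0 to 2 counts.

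Among the other cystatins, Cstb and Cst7 were called in comparisons with sick KD. Of 19 further cystatin genes, 10 had 0 counts in every library and 5 were tested. In young mice 0 of these 5 passed with edgeR, adjusted or unadjusted, against 0.0404% and 2.66% of all genes. In old KO against sick KD 2 of the 5 were called, against 18.1% of all genes. In sick KD against young KD 2 were called, against 20.9% of all genes. Cstb (stefin B), the widely expressed cytosolic relative, was at 50.6 ± 0.793 CPM in young KD, 55.1 ± 3.30 CPM in young KO, 66.9 ± 0.543 CPM in sick KD and 49.2 ± 6.92 CPM in old KO (SD, n = 2). It rose in sick KD against young KD, with a log2 fold change of 0.40 (SE 0.10, adjusted p = 0.0371 from edgeR). Cst7 (cystatin F), which blocks cathepsins inside granules and lysosomes of immune cells, rose in the same comparison by 0.72 (SE 0.11, adjusted p = 0.0116 from edgeR) and fell in old KO against sick KD by 0.57 (SE 0.13, adjusted p = 0.0268 from edgeR). Unlike the stefin A genes, Cstb and Cst7 had nearly equal levels in both sick KD mice, with 66.6 and 67.3 CPM for Cstb and 74.4 and 73.6 CPM for Cst7. Kng2, a kininogen gene with a close copy in Kng1, was higher in old KO than in sick KD by 2.02 (SE 0.56, adjusted p = 0.0484 from edgeR), at 0.142 to 1.13 CPM in the 8 libraries, and this call was lost with DESeq2 (adjusted p = 0.123). Cst3 (cystatin C), the secreted inhibitor with the highest level on the list, was not called in any of the 4 comparisons and lay between 407 and 572 CPM. The call of Cstb in sick KD was lost without sick KD replicate 1 and without either young KD library. The list had 0 calls in old KO against sick KD without sick KD replicate 1 or without old KO replicate 1, and 0 in sick KD against young KD without young KD replicate 1.

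Cysteine cathepsin genes encode the proteases that stefins block and their relatives, and all 11 on the list were tested. In young mice 0 passed with edgeR and 1 had an unadjusted p under 0.05, against 0.0404% and 2.66% of all genes. Ctsb was at 950 ± 29.7 CPM in young KD, 934 ± 20.6 CPM in young KO, 920 ± 59.8 CPM in sick KD and 1055 ± 18.5 CPM in old KO (SD, n = 2), and Ctss was likewise not called in any comparison. In old KO against sick KD 2 rose and 0 fell, against 18.1% of all genes called. These were Ctsf, by 1.84 (SE 0.33, adjusted p = 0.0146 from edgeR), and Lgmn, the asparagine-specific protease legumain, by 0.84 (SE 0.11, adjusted p = 0.00690 from edgeR). Lgmn fell in sick KD against young KD by 0.48 (SE 0.11, adjusted p = 0.0270 from edgeR), where 20.9% of all genes were called. Between old KO and young KO 0 of the 11 passed, and 3 had an unadjusted p under 0.05, against 0.929% and 8.86% of all genes. The call of Lgmn in sick KD was lost without either young KD library, and that of Ctsf without sick KD replicate 1.

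**Figure D5:**
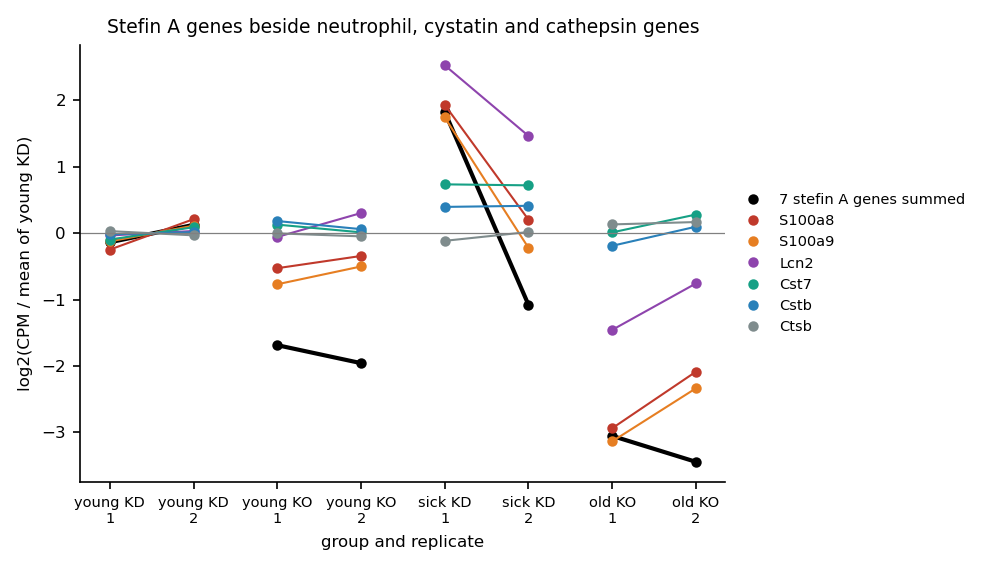
Level of the 7 stefin A genes together (black) and of 6 other genes in each library, as log2 of CPM over the mean of young KD. Lines join the 2 mice of a group. S100a8 and S100a9 share the high value in sick KD replicate 1 and the low values in old KO, while Cst7, Cstb and Ctsb differ little between the mice of a group.

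Genes of late neutrophil precursors and neutrophils were called in part, with 10 of 21 in old KO against sick KD, 8 of 22 in sick KD against young KD and 3 of 21 in old KO against young KO. The summed level of the 22 listed genes was 4264 and 3902 CPM in young KD, 3173 and 3071 CPM in young KO, 11850 and 6720 CPM in sick KD and 2012 and 2729 CPM in old KO. Much of each sum was Chil3 alone, at 2535 and 1835 CPM in young KD and 1531 and 1387 CPM in young KO. It was at 6193 and 4207 CPM in sick KD and 890 and 1505 CPM in old KO, so the sum mostly follows a few abundant genes. None of the 22 was at 0 in all libraries. In young mice 0 of the 22 passed with edgeR and 12 had an unadjusted p under 0.05, against 2.66% of all genes, and the median log2 fold change was -0.52 against -0.006 over all genes tested. In old KO against sick KD, 9 of 21 tested genes fell and 1 rose, against 8.22% and 9.93% of all genes called lower and higher, with a median of -0.67 against -0.005 over all genes. S100a8, a calcium-binding protein abundant in neutrophils, fell by 3.76 (SE 0.58, adjusted p = 0.00972 from edgeR), and its partner S100a9 fell by 3.75 (SE 0.63, adjusted p = 0.0122 from edgeR). Lcn2, the iron-siderophore carrier of secondary granules, fell by 3.15 (SE 0.39, adjusted p = 0.00546 from edgeR), and Wfdc21 fell by 3.14 (SE 0.26, adjusted p = 0.00346 from edgeR). Retnlg, a resistin-like gene of mature neutrophils, rose by 1.77 (SE 0.27, adjusted p = 0.00944 from edgeR). The list did not move as one. Csf3r (119 to 168 CPM) and Ngp (8.45 to 30.4 CPM) were not called in any of the 4 comparisons. Their log2 fold changes in old KO against sick KD were -0.02 (SE 0.12) and -0.49 (SE 0.48).

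In sick KD against young KD, 7 of the 22 rose and 1 fell, against 9.45% and 11.4% of all genes called higher and lower. Lcn2 rose by 2.09 (SE 0.32, adjusted p = 0.0116 from edgeR) and Wfdc21 by 2.01 (SE 0.24, adjusted p = 0.00608 from edgeR), while Retnlg fell by 1.06 (SE 0.17, adjusted p = 0.0119 from edgeR). In old KO against young KO, where 0.606% of all genes were called lower, S100a9 fell by 2.05 (SE 0.26, adjusted p = 0.0396 from edgeR), S100a8 by 2.02 (SE 0.27, adjusted p = 0.0466 from edgeR) and Wfdc21 by 1.26 (SE 0.13, adjusted p = 0.0297 from edgeR). S100a8 was at 2140 and 645 CPM in the sick KD mice, so it too was higher in replicate 1. Unlike the stefin A genes, its level in replicate 2 was not below both young KD libraries (472 and 649 CPM). The calls in old KO against young KO numbered 6 without old KO replicate 2, 1 without young KO replicate 1, and 0 without young KO replicate 2 or with all 8 mice fitted together. The part of neutrophil content in the stefin A values was not tested.

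Other cell types in the marrow differed between the groups too. The 10 monocyte genes summed to 8172.9 and 10176.3 CPM in young KD and 10197.5 and 8874.1 CPM in young KO. They summed to 13930.3 and 12835.8 CPM in sick KD and 10473.5 and 10850 CPM in old KO. In sick KD against young KD 4 of them rose and 1 fell with edgeR, against 9.45% and 11.4% of all genes. In old KO against sick KD 1 rose and 2 fell, against 9.93% and 8.22%. The summed level of 9 B cell genes was 771 and 624 CPM in young KD, 525 and 656 CPM in young KO, 36.2 and 92.0 CPM in sick KD and 117 and 173 CPM in old KO. That of 10 macrophage genes was 292 and 358 CPM in young KD, 398 and 364 CPM in young KO, 264 and 228 CPM in sick KD and 531 and 431 CPM in old KO. Genes of eosinophils, basophils and mast cells, 12 in number, summed to 710 and 640 CPM in young KD, 780 and 772 CPM in young KO, 500 and 568 CPM in sick KD and 1613 and 1041 CPM in old KO. The 8 erythroid genes summed to 4134 and 1520 CPM in young KD, 1405 and 3529 CPM in young KO, 657 and 1007 CPM in sick KD and 4661 and 3049 CPM in old KO. All 8 of them rose in old KO against sick KD with edgeR, where 9.93% of all genes were called higher. All 8 fell in sick KD against young KD, where 11.4% of all genes were called lower. The 8 T and NK cell genes summed to 45.0 and 49.4 CPM in young KD, 54.7 and 48.3 CPM in young KO, 18.6 and 21.5 CPM in sick KD and 36.9 and 46.2 CPM in old KO. In old KO against sick KD 4 of these 8 rose, as did 8 of 10 macrophage genes, 9 of 12 eosinophil, basophil and mast cell genes and 2 of 9 B cell genes. In sick KD against young KD 3 of the 8 T and NK cell genes, 8 macrophage genes and all 9 B cell genes fell. Of the 12 eosinophil, basophil and mast cell genes, 3 fell and 1 rose there. The shares over all genes in these comparisons are those given for the erythroid genes. In old KO against young KO all 9 B cell genes and 1 of the 8 T and NK cell genes fell, against 0.606% of all genes. In young mice 0 genes of these lists passed with edgeR, though 6 of 10 macrophage genes had an unadjusted p under 0.05, against 2.66% of all genes. So did 3 of the 12 eosinophil, basophil and mast cell genes, and 0 or 1 in each other list. Of 15 epidermis genes, 11 were at 0 in all libraries, keratins Krt5 and Krt14 among them, and the list summed to 1.82 to 3.71 CPM, nearly all of it Sfn. Genes of early neutrophil precursors, Mpo and Elane among them, summed to 4267 to 7054 CPM, so the labelled tissue was borne out by its markers in every library. Of the 6 tested, 4 rose in sick KD against young KD, against 9.45% of all genes. In old KO against sick KD 2 of the 6 fell, against 8.22% of all genes. The part of each of these cell types in the stefin A values was not tested.

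Over the 12505 protein-coding genes compared, the 5 whose log2(CPM + 1) followed the summed stefin A level most closely across the 8 libraries were Zranb1, a deubiquitinase gene (Pearson r = 0.972), Rapgef6, an exchange factor gene for Rap GTPases (r = 0.964), Exosc8, an exosome subunit gene (r = 0.958), Spef2 (r = 0.954) and Rnmt, the mRNA cap methyltransferase gene (r = 0.951). Their levels varied far less than those of the stefin A genes, from 71.1 to 93.9 CPM for Zranb1 and from 65.0 to 74.8 CPM for Exosc8. Without sick KD replicate 1, r was 0.931 for Zranb1 and 0.926 for Rapgef6. Of the neutrophil genes listed, S100a9 was the most alike with r = 0.910, at place 37 in that order, and r = 0.848 without sick KD replicate 1. Cstb stood at r = 0.485 and Ctsb at r = -0.787. These correlations over 8 libraries share depth and cell makeup and are a description.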

How the data were processed

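Whole BM RNA of 8 mice was sequenced from stranded poly(A) libraries. The authors aligned reads to mm10 (GRCm38) with TopHat2 2.0.10, processed them with SAMtools and counted them on Ensembl genes with HTSeq; the Ensembl release, the strand setting and the read length are not given in the sources used here. The deposited values are raw counts per gene without normalization. Tallies of unassigned reads were left out of the library sizes. The libraries held 26642067 to 42679114 counts on genes, which leaves weakly expressed genes imprecise, and intervals and count floors (3 counts) cover counting error only.

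Mice were grouped by the labels. The test was that of edgeR 4.0.16 under R 4.3.3 (TMM, filterByExpr by group, quasi-likelihood test, Benjamini-Hochberg over all genes tested, threshold 0.05), each comparison on its own 4 mice. The SE is the absolute log2 fold change over the square root of F. Alternatives were DESeq2 1.42.0, other filters on low counts, all 8 mice fitted together, other scalings and each mouse left out. Ratios of stefin A genes in other groups are of mean CPM, and pooled ratios are of summed counts over summed effective library sizes. Positions, transcripts and sequences came from GENCODE M21 and promoters from RefSeq, and coding sequences were aligned with MAFFT 7.526. Of the 41214 identifiers, 40254 had a symbol.

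The members and the gene lists were chosen with earlier results of these data known. Named genes are the 7 members, genes called on the lists of cystatins, cathepsins and late neutrophil genes (up to 4 for each list and comparison), up to 2 abundant genes of a list that were not called, the genes of the cluster and its flanks, Gfi1, and the 5 genes most alike. S100a8 and S100a9 are also named for their correlation and Chil3 for its part in a summed level. Krt5, Krt14 and Sfn are named for the epidermis list. All of these were chosen after their values were seen. The edgeR fit was tested on simulated data.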

Additional observations from a re-analysis of the deposited data

Results flagged for a closer look

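The KO-to-KD difference ran in opposite directions in young mice and in old or sick mice, in every library, for 4 genes of the cystatin and late neutrophil lists. The search covered the stefin A genes and those cystatin, cathepsin and late neutrophil genes that were called in a comparison. Of all genes tested, 12.2% were lower and 14.9% higher in both young KO libraries. In both old KO libraries against sick KD, 33.5% were lower and 32.5% higher. The share of all genes with opposite orders was not computed. The difference between these effects was not tested, and the young and the old or sick comparison use different mice. For Cstb (stefin B) the ratio of mean CPM was 0.735 for old KO over sick KD and 1.09 for young KO over young KD. For Mmp8, the neutrophil collagenase, it was 0.540 and 1.16. For Wfdc21 it was 0.113 and 1.10. For Retnlg it was 3.41 and 0.661. None of the 4 passed in young mice with edgeR, and no stefin A gene was among them.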

How the results depend on the processing

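For stefin A genes in young mice, 0 were called under DESeq2, the stricter filter, all 8 mice fitted together and each mouse left out (0 to 0), and 5 without a filter on low counts. Over all genes, the 6 calls in young mice became 29 with DESeq2, 119 without a filter and 3 with all 8 mice together, and 2 to 8 with a mouse left out. The 2626 calls in old KO against sick KD became 4325 without a filter and 4200 with all 8 mice, and 1221 to 2795 with a mouse left out. The 3063 calls in sick KD against young KD became 1316 to 3401 with a mouse left out, and the 138 calls in old KO against young KO became 382 with DESeq2, 796 without a filter and 17 to 307 with a mouse left out. Without a filter, cystatin calls were 4 in old KO against sick KD and 4 in sick KD against young KD, cathepsin calls 4 in old KO against sick KD, 2 in sick KD against young KD and 1 in old KO against young KO, and late neutrophil calls 8 in young mice and 7 in old KO against young KO. With DESeq2, cystatin calls in old KO against sick KD were 0 higher and 2 lower, in place of 1 and 1, cathepsin calls were 2 in sick KD against young KD, and late neutrophil calls 2 in young mice and 5 in old KO against young KO. With all 8 mice together, cystatin calls were 4 in old KO against sick KD and late neutrophil calls 0 in old KO against young KO. With at least 10 counts in every mouse, 1 cystatin was called in old KO against sick KD. With a mouse left out, calls were 0 to 3 (cystatins, old KO against sick KD), 0 to 2 (cystatins, sick KD against young KD), 0 to 2 (cathepsins, sick KD against young KD) and 0 to 6 (late neutrophil genes, old KO against young KO). In these fits the lone mouse of a group is assumed to vary like the other group. The cause of these changes was not tested.

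The log2 ratio of the summed stefin A level ranged from -5.06 to -2.16 in old KO against sick KD and from -1.08 to 1.83 in sick KD against young KD with a mouse left out, and the latter turned direction without sick KD replicate 1. So did 6 members in that comparison, with ranges of -0.94 to 2.03 for Stfa1, -0.56 to 1.46 for Stfa2, -1.49 to 1.95 for Stfa2l1, -1.38 to 1.54 for Stfa3, -1.20 to 1.98 for BC100530 and -0.54 to 1.90 for Gm5483. Stfa2l1 in old KO against young KO ranged from -1.10 to 0.044 and turned without old KO replicate 2, which has 0 counts. The young and the old KO against young KO ratios of the summed level kept their direction under DESeq2 size factors, no TMM, without Stfa3 and with each mouse left out. Correlations without sick KD replicate 1 were computed after the data were seen. No paired analysis was possible because each mouse has its own number in the labels and the groups have none in common. Depth limits the old KO values most, at 19 and 20 counts for the 7 genes together.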
